A study of Mus musculus with 6 samples.

Results

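The genes described here are 8 intermediate filament genes measured in mouse primary cortical neuron cultures after knockdown of Cugbp1, the older name of Celf1. They are the neuronal filament genes Ina, Nefl, Nefm, Nefh and Prph and the glial and progenitor filament genes Vim, Nes and Gfap. A probe set, the group of array probes that reads 1 exon region, was taken as theirs where the platform's annotation gave it that gene symbol and no other. This gave 120 probe sets of 316997 with a single gene symbol and 8 genes of 22071. Of the 120, 110 had a mean log2 signal of at least 5.73, the array-wide median, and all 8 genes had enough of these to be tested among 16524 genes.

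Intermediate filaments are rope-like polymers that give a cell its mechanical strength, and in axons they set the calibre of the fibre. In neurons of the central nervous system the filament is a copolymer of the neurofilament triplet (the light, medium and heavy chains encoded by Nefl, Nefm and Nefh) with internexin, encoded by Ina. Internexin is made early in neuronal differentiation, and the heavy chain, whose long tail carries many phosphorylation sites, accumulates as neurons mature. Peripherin, vimentin, nestin and GFAP build filaments in peripheral neurons, in mesenchymal and radial glial cells, in neural progenitors and in astrocytes.

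3 arrays came from cultures infected with a lentivirus that carries a short hairpin RNA (shRNA) against mouse Cugbp1, and 3 from cultures given a control shRNA virus. All cultures held dissociated cortex of C57BL/6 embryos (E15) without its meninges, and were treated overnight with AraC, an inhibitor of DNA synthesis that acts on dividing cells. The virus was left on whole wells for 4 hours on day 5, with no sort of cells named, and RNA was taken on day 11. The labels do not say that replicates came from separate cultures or litters, so p-values measure only the spread between these arrays, which may be technical. Some labels conflict: for replicates 2 and 3 of either group the protocol names Tdp-43 as the shRNA target, and the overall design mentions motor neurons, while all titles and sources give Cugbp1 or control shRNA in cortical neurons.

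The targeted gene was checked first. Celf1 had gene values of 9.59, 9.40 and 9.33 on the Cugbp1 shRNA arrays of replicates 1, 2 and 3, against 10.85, 10.79 and 10.75 on the control arrays. A gene value is the log2 signal of a gene on 1 array, summarised over its probe sets by median polish. Celf1 fell to 39.1% of control (limma, adjusted p = 0.0124), so it was lower on all arrays labelled as knockdown. Leaving out 1 array kept the Celf1 difference between -1.43 and -1.32, with adjusted p from 0.0308 to 0.141, past the threshold only without control replicate 1. Over all genes limma called 3.94% at an adjusted p under 0.05, with 2.84% lower and 1.10% higher, and the median difference of all genes was -0.015. Adding the replicate number to the model as a block raised this to 23.2%, with 13.8% lower and 9.31% higher. Arrays correlated with each other at 0.971 to 0.995 over all probe sets.

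Ina was the 1 filament gene that passed the test, and it fell. Its gene values were 12.39, 12.30 and 12.31 on the Cugbp1 shRNA arrays of replicates 1, 2 and 3, against 13.00, 12.95 and 12.85 on the control arrays. The groups did not overlap, as for 14.4% of all genes in this direction, and the gap between them was several times the spread within either. The mean was 12.33 ± 0.05 with Cugbp1 shRNA and 12.93 ± 0.08 in control (SD, n = 3 each), a log2 difference of -0.60 (standard error 0.09; limma, adjusted p = 0.0199, and 0.00311 with the replicate block). This is 65.9% of the control signal, with a 95% confidence interval of 57.2% to 75.9%. Within the replicate pairs the difference was -0.61, -0.65 and -0.54, lower in 3 of 3. Between them the members thus had 1 call among 8 genes, where 3.94% of all genes were called.

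The Ina call was lost in 5 of the 6 fits that left out 1 array. The difference stayed between -0.64 and -0.55 when 1 array was left out, but the adjusted p was 0.0719, 0.143 and 0.154 without Cugbp1 shRNA replicates 1, 2 and 3, and 0.0460, 0.124 and 0.0657 without control replicates 1, 2 and 3. On the 4 arrays of replicates 2 and 3, a choice made once the values had been seen, it was -0.59 (limma, adjusted p = 0.0401).

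**Figure D1:**
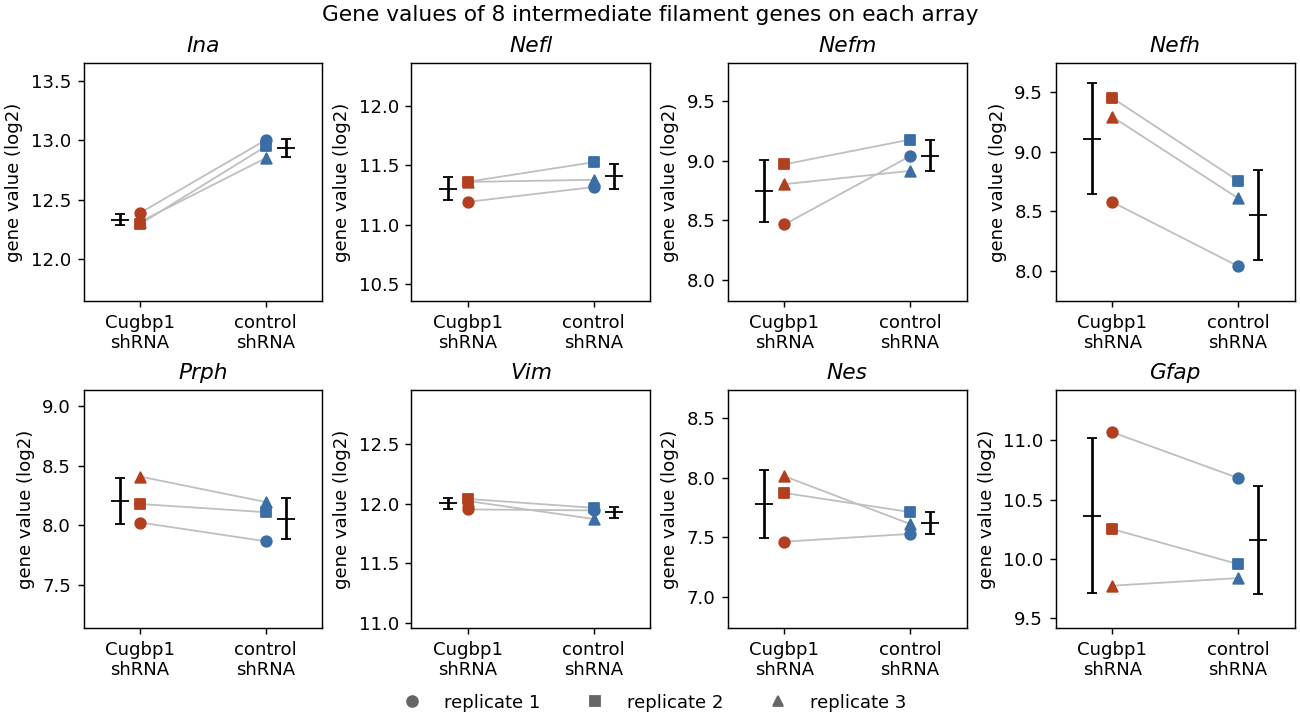
Gene values (log2 signal, y axis) of the 8 filament genes on the Cugbp1 shRNA arrays (left, red) and the control arrays (right, blue); each panel spans 2 log2 units, symbols are replicates, grey lines join arrays of the same replicate number, and black bars are mean ± SD (n = 3). Ina is separated between groups, while Nefh and Gfap differ as much between replicates as between groups.

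Each of the 6 probe sets of Ina was lower in all 3 knockdown arrays than in any control array. Groups that do not overlap in this direction were seen for 10.1% of the kept probe sets of tested genes. The largest difference was that of probe set 4556201, with 11.35, 11.41 and 11.28 on the Cugbp1 shRNA arrays against 12.24, 12.18 and 12.15 on the control arrays, a difference of -0.84. The smallest was that of probe set 4665895, with 12.84, 12.96 and 12.82 on the Cugbp1 shRNA arrays against 13.27, 13.41 and 13.28 on the control arrays, a difference of -0.45. The fall was thus shared by every Ina probe set, though their sizes differed. The 3 brighter ones, by their mean over all arrays, lay at -0.59 to -0.45 and the 3 dimmer ones at -0.84 to -0.66. No single probe set passed over all 597778 kept probe sets (limma, smallest adjusted p = 0.452), where 0.00% passed, although all 6 had an unadjusted p under 0.05.

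Nefl, the light chain, had nearly the same values in both groups. They were 11.19, 11.36 and 11.36 on the Cugbp1 shRNA arrays, against 11.32, 11.53 and 11.38 on the control arrays. These ranges overlap, and the difference of -0.10 (standard error 0.10, adjusted p = 0.697) did not pass. Its 95% confidence interval, -0.33 to 0.13, corresponds to 79.3% to 109% of control. A fall of the size seen for Ina thus lies outside that interval. Of the 7 Nefl probe sets, 6 had a lower mean, beside 50.6% of the kept probe sets of all tested genes, and none separated the groups.

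Nefm, the medium chain, had a lower mean that did not pass. Its gene values were 8.47, 8.97 and 8.80 on the Cugbp1 shRNA arrays, against 9.04, 9.18 and 8.92 on the control arrays. The groups overlap because the control value of replicate 3 lies below the knockdown value of replicate 2. The difference was -0.30 (standard error 0.15, adjusted p = 0.337, and 0.0775 with the replicate block), with a 95% confidence interval of -0.64 to 0.04. By replicate it was -0.57, -0.21 and -0.11, so the knockdown array of replicate 1 carried much of it, and on replicates 2 and 3 alone it was -0.16. All 13 kept Nefm probe sets had a lower mean, from -0.56 to -0.0094, and 1 of them, 4320996, separated the groups. Among the kept probe sets of all tested genes 50.6% had a lower mean and 10.1% separated the groups downward.

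Nefh, the heavy chain, had a higher mean with Cugbp1 shRNA. Its gene values were 8.58, 9.45 and 9.29 on the Cugbp1 shRNA arrays, against 8.04, 8.76 and 8.61 on the control arrays. In both groups the replicate 1 array was the lowest by over 0.5, so the groups overlap although every knockdown array lies above its control of the same number. The difference was 0.64 (standard error 0.27, 95% confidence interval 0.02 to 1.26) and did not pass without the block (adjusted p = 0.254, unadjusted p = 0.0458). Within the replicate pairs it was 0.54, 0.70 and 0.68, higher in 3 of 3, and with the replicate block it passed (standard error 0.06, adjusted p = 0.00311), the fit in which 9.31% of all genes were called higher. With both replicate 1 arrays dropped, a choice made once the values had been seen, the groups no longer overlap. The fit on replicates 2 and 3 alone, without the block, called 256 genes higher and 421 lower. In that fit, with 2 arrays per group, the Nefh difference was 0.68 and passed (adjusted p = 0.0422). Leaving out 1 array, without the block, it ran from 0.42 without control replicate 1 to 0.89 without Cugbp1 shRNA replicate 1, and passed in none of these 6 fits (adjusted p 0.155 to 0.646).

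Of the 16 kept Nefh probe sets, 15 had a higher mean, where 50.6% of the kept probe sets of all tested genes had a lower one. The 8 brightest, by their mean over all arrays, lay close together at 0.65 to 0.83, and the 8 dimmer ones ranged from -0.15 to 0.74 with a median of 0.23. The brightest, 5521851, had 11.28, 12.24 and 11.99 on the Cugbp1 shRNA arrays against 10.55, 11.44 and 11.38 on the control arrays. It shows the same low replicate 1 arrays as the gene value. With the mean of the probe sets in place of median polish the Nefh difference was 0.49.

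Prph, which encodes peripherin, did not differ beyond its spread. Its gene values were 8.02, 8.18 and 8.41 on the Cugbp1 shRNA arrays, against 7.86, 8.11 and 8.19 on the control arrays. The ranges overlap, and the difference of 0.15 (standard error 0.13, adjusted p = 0.670) had a 95% confidence interval of -0.17 to 0.46. It was positive in each pair, at 0.16, 0.07 and 0.21, and between 0.01 (without control replicate 1) and 0.20 when 1 array was left out. Of its 12 kept probe sets 8 had a higher mean and 4 a lower one, and 3 separated the groups upward. Among the kept probe sets of all tested genes 50.6% had a lower mean and 8.11% separated the groups upward.

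**Figure D2:**
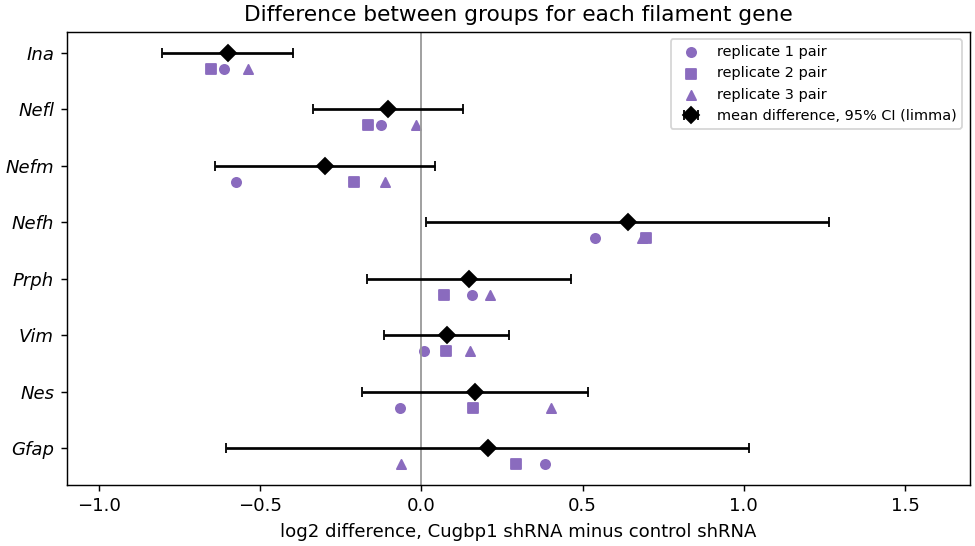
Log2 difference, Cugbp1 shRNA minus control shRNA (x axis), for each filament gene (y axis); black diamonds with bars are the mean difference with its 95% confidence interval from limma without a block (n = 3 arrays per group), and purple symbols are the differences within each replicate pair. Ina lies at -0.60 and Nefh at 0.64. All 3 pairs lie on one side of zero for these genes, and also for Nefl, Nefm, Prph and Vim.

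A call for Ina and none for the other neuronal filament genes does not show that they responded unequally, so the value of Ina minus that of each partner was taken within every array. Probes of different genes bind with different strength, and only the change of this value between groups can be read. Ina minus Nefl was 1.20, 0.93 and 0.95 on the Cugbp1 shRNA arrays, against 1.68, 1.42 and 1.47 on the control arrays, a change of -0.50 without overlap. Its change within the pairs was -0.49, -0.49 and -0.52, so these 2 genes parted by nearly the same amount in each replicate.

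Ina minus Nefh was 3.81, 2.84 and 3.02 on the Cugbp1 shRNA arrays, against 4.96, 4.19 and 4.24 on the control arrays. This change of -1.24 was the largest among the neuronal partners, and the groups did not overlap. Ina minus Prph changed by -0.75, again without overlap. Ina minus Nefm changed by -0.30, with groups that overlap and changes of -0.04, -0.44 and -0.42 in replicates 1, 2 and 3. With 3 arrays against 3 an exact two-sided permutation test cannot go below p = 0.10, and it gave 0.10 for Nefl, Nefh and Prph and 0.20 for Nefm. Adjusted over these 4 pairs the values were 0.133, 0.133, 0.133 and 0.20, and since no value under 0.05 can be reached, this test does not settle whether the genes responded unequally. Taken within the replicate pairs, the change had a standard error of 0.0098 for Nefl, 0.058 for Nefh, 0.014 for Prph and 0.13 for Nefm (n = 3 pairs), given with no p.

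Nefh was also set against the other triplet chains, a comparison chosen after its values were seen and given with no test. Nefh minus Nefl was -2.62, -1.91 and -2.07 on the Cugbp1 shRNA arrays, against -3.28, -2.77 and -2.77 on the control arrays, a change of 0.74. Nefh minus Nefm changed by 0.94. In both cases the groups did not overlap, and the replicate 1 arrays were again the lowest of their group.

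The glial and progenitor filament genes had slightly higher means, and none of the 3 passed. Vim, the gene of vimentin, had the smallest mean difference of the 8, with gene values of 11.95, 12.04 and 12.02 on the Cugbp1 shRNA arrays, against 11.94, 11.97 and 11.87 on the control arrays. The lowest knockdown value lies between the control values, and the difference was 0.08 (standard error 0.08, adjusted p = 0.729) with a 95% confidence interval of -0.12 to 0.27. Of its 18 kept probe sets 13 had a higher mean, including all 9 of the brighter ones, at 0.03 to 0.18. The groups were separated upward by 3 of the 18, beside 8.11% of the kept probe sets of all tested genes, of which 50.6% had a lower mean.

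Nes, the gene of nestin, had values of 7.46, 7.87 and 8.01 on the Cugbp1 shRNA arrays, against 7.53, 7.71 and 7.61 on the control arrays. The knockdown arrays of replicates 2 and 3 were above all controls and that of replicate 1 below them. The difference was 0.17 (standard error 0.15, adjusted p = 0.662), and -0.07, 0.16 and 0.40 within the pairs. On replicates 2 and 3 alone it was 0.27 (adjusted p = 0.143). Of 22 kept probe sets 19 had a higher mean, and 4 separated the groups upward, the largest being 4533150 at 0.55. Of the kept probe sets of all tested genes 8.11% separated the groups upward and 50.6% had a lower mean.

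Gfap, the astrocyte filament gene, varied more between replicates than between groups. Its values were 11.07, 10.25 and 9.78 on the Cugbp1 shRNA arrays, against 10.68, 9.96 and 9.84 on the control arrays. Replicate 1 was the highest array of both groups. The difference was 0.21 (standard error 0.35, adjusted p = 0.858), its 95% confidence interval ran from -0.61 to 1.02, and it was -0.14 without Cugbp1 shRNA replicate 1. In bulk cultures fewer cells of a type and less RNA per cell cannot be told apart, here or for the neuronal genes. S100b, another astrocyte marker, had the same order of arrays as Gfap, and was named after its values were seen. Slc1a3, named likewise, was also highest in replicate 1 and lowest in replicate 3 of both groups. The other markers of the astrocyte list were not. The 9 markers of that list, which holds S100b but not Gfap, did not share the order when summed. Their summed linear signal was 16059, 17104 and 16521 on the Cugbp1 shRNA arrays, against 15436, 17110 and 17500 on the control arrays. It was lowest in replicate 1 of both groups, but such a sum is weighted to the brightest markers, Aldoc and Slc1a2.

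**Figure D3:**
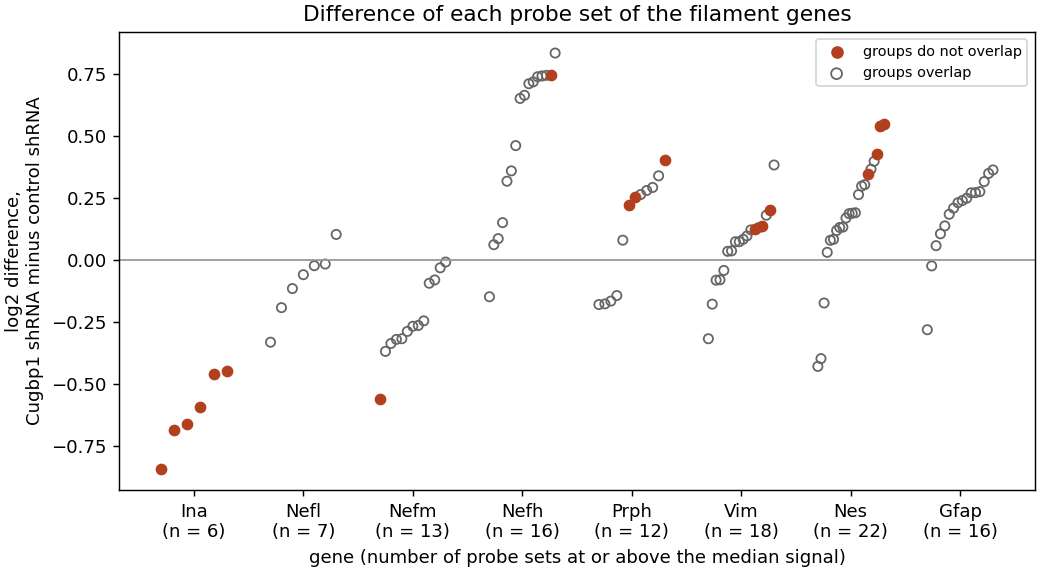
Log2 difference, Cugbp1 shRNA minus control shRNA (y axis), of every kept probe set, ordered by size within each gene (x axis); filled points are probe sets whose 3 knockdown and 3 control values do not overlap. All 6 Ina points are filled and below zero, and the other genes have between 0 and 4 filled points.

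Over all 8 genes, 7 of 110 kept probe sets separated the groups downward (6.36%) and 11 upward (10.0%). Among the kept probe sets of all tested genes these shares were 10.1% and 8.11%, so the members as a set stood near the background and the downward ones were those of Ina with 1 of Nefm. Of the 110, 12 (10.9%) had an unadjusted p below 0.05 in limma, and 6 of these 12 were those of Ina. The share was 5.92% over all 597778 kept probe sets, a wider set that also holds probe sets of no tested gene, so the 2 shares are not matched.

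Because CELF1 acts in splicing, each probe set was also compared with the rest of its gene. No member probe set passed in limma's diffSplice (smallest unadjusted p = 0.0374, all adjusted p = 1), a test that called 0.0822% of 244606 probe sets. The smallest p values belonged to 2 probe sets of Nes, 5115887 at -0.63 and 4796100 at -0.60 relative to the rest of that gene, followed by 4556201 of Ina at -0.27. With the replicate block 1 member passed, Nefh probe set 5054169 at -0.68 (adjusted p = 0.0455), where that fit called 2.37%. Its own difference was 0.57, -1.09 and 0.07 in replicates 1, 2 and 3, against 0.44, 0.57 and 0.59 for the mean of the other kept Nefh probe sets. Relative to them it was at 0.13, -1.66 and -0.52, largest in replicate 2 and not lower in replicate 1.

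Among all genes tested, the 5 whose values over the 6 arrays were most like those of Ina were Suv39h1, a histone H3 lysine methyltransferase, Dtx4, a Deltex-family ubiquitin ligase, Ldb2, a LIM domain binding protein, Elmod1, and Ccdc124. Their Pearson correlations with Ina ran from 0.997 to 0.9999 over 6 arrays that share the same group split, and they are given as a description only. Suv39h1 had a difference of -0.61 (adjusted p = 0.0198), Dtx4 of -0.98 (adjusted p = 0.0124) and Ccdc124 of -0.81 (adjusted p = 0.0176). Ldb2, at -0.31 (adjusted p = 0.0868), and Elmod1, at -0.37 (adjusted p = 0.0565), did not pass. Among the members the correlation with Ina was 0.63 for Nefm, 0.45 for Nefl and -0.76 for Nefh. It was -0.68 for Vim, -0.56 for Prph, -0.51 for Nes and -0.08 for Gfap.

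Partner genes of the filaments gave few calls. Genes below that passed only with the replicate block are given with that adjusted p, and those outside the naming rule were named for it after their values were seen. Of 8 motor genes that carry neurofilaments along axons, 1 fell and 0 rose, with a median of 0.12 beside -0.015 for all genes. This was Dctn1, a dynactin subunit, which fell by 0.53 on the log2 scale (adjusted p = 0.0300). Kif5a, a kinesin heavy chain, was at 0.24 (adjusted p = 0.261; block, 0.0390), and the light chain Klc1 at 0.20 (adjusted p = 0.236; block, 0.0480). Of 11 measured kinase and phosphatase genes that act on neurofilament tails 0 passed in limma and 0 had an unadjusted p under 0.05. The list's median was -0.06. Mapk3, at -0.24 (adjusted p = 0.280; block, 0.0341), and the Cdk5 activator Cdk5r1, at -0.18 (adjusted p = 0.348), had the smallest p.

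Of 6 measured linker and ligase genes 0 passed in limma, and 0 had an unadjusted p under 0.05. Dst, a cytoskeletal linker, was at 0.19 (adjusted p = 0.367) and Trim2, a ubiquitin ligase that acts on the light chain, at -0.18 (adjusted p = 0.434). With the block 1 passed, the desmosomal linker Dsp at -0.25 (adjusted p = 0.655; block, 0.0395). Of 10 other intermediate filament genes 0 passed in limma and 2 had an unadjusted p under 0.05. These were Lmnb1, a nuclear lamin, at 0.32 (adjusted p = 0.149, and 0.0419 with the block) and Synm, synemin, at -0.28 (adjusted p = 0.223, and 0.0180 with the block). Lmnb2, another lamin, also passed with the block, at -0.22 (adjusted p = 0.383; block, 0.0402).

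General neuronal markers did not share the size of the Ina difference. Of 11 measured pan-neuronal markers 9 had a lower mean, a larger share than the 53.5% of all genes. The list's median was -0.09, beside -0.015 for all genes, with differences from -0.22 to 0.11. Of these markers 0 passed in limma and 0 had an unadjusted p under 0.05. Tubb3, a neuronal tubulin, was at -0.16 (adjusted p = 0.386), and Elavl4, a neuronal RNA-binding protein, at -0.22 (adjusted p = 0.350). Their summed linear signal was 51671 to 57152 on the Cugbp1 shRNA arrays, against 53835 to 60106 on the control arrays, which overlap. Of the 7 measured cortical neuron markers Gad2, a GABA-synthesising enzyme, rose by 0.77 on the log2 scale (adjusted p = 0.0201), and the others did not pass without the block. With it 4 passed, Gad2 among them, where that fit called 23.2% of all genes. Slc17a7, Slc17a6 and Tbr1 of the same list passed in neither fit, at -0.07, -0.19 and -0.03. Gad1, the other GABA-synthesising enzyme, was at 0.46 (adjusted p = 0.0712; block, 0.00824). Neurod6 was at -0.31 (adjusted p = 0.379; block, 0.0267) and Bcl11b at -0.23 (adjusted p = 0.193; block, 0.0450), both transcription factors of cortical projection neurons. The 5 measured motor neuron markers had gene values between 6.04 and 7.26 in the group means, near the signal floor set for probe sets, with 0 called and Slc5a7, a choline transporter, at -0.43 (adjusted p = 0.0703, and 0.0135 with the block).

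Markers of other cells that could add vimentin, nestin or GFAP signal gave 1 call without the block. Of 9 astrocyte and 8 measured progenitor markers 0 passed in limma and 0 had an unadjusted p under 0.05, with medians of -0.04 and 0.05. With the block Aldh1l1 of the astrocyte list passed, at -0.21 (adjusted p = 0.369; block, 0.0411). Of the progenitor list Eomes, at -0.61 (adjusted p = 0.329; block, 0.0253), and Mki67, at 0.24 (adjusted p = 0.691; block, 0.0299), passed with it. The summed progenitor signal was 13917 to 14652 on the Cugbp1 shRNA arrays, against 14010 to 15584 on the control arrays. Of 7 measured vascular and fibroblast markers Pdgfrb, a mural cell receptor, fell by 0.80 on the log2 scale (adjusted p = 0.0415), and the list's median was -0.04. Its summed signal was 2557 to 2760 with Cugbp1 shRNA and 2814 to 2910 in control, and without Pdgfrb it was 2335 to 2594 and 2407 to 2620, which overlap. Among the 6 measured markers of the oligodendrocyte lineage and the 6 of microglia limma called 0, and 0 had an unadjusted p under 0.05. C1qa of the microglia list was at -0.23 (adjusted p = 0.710) and passed with the block (0.0362). Their part in the filament values was not tested.

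**Figure D4:**
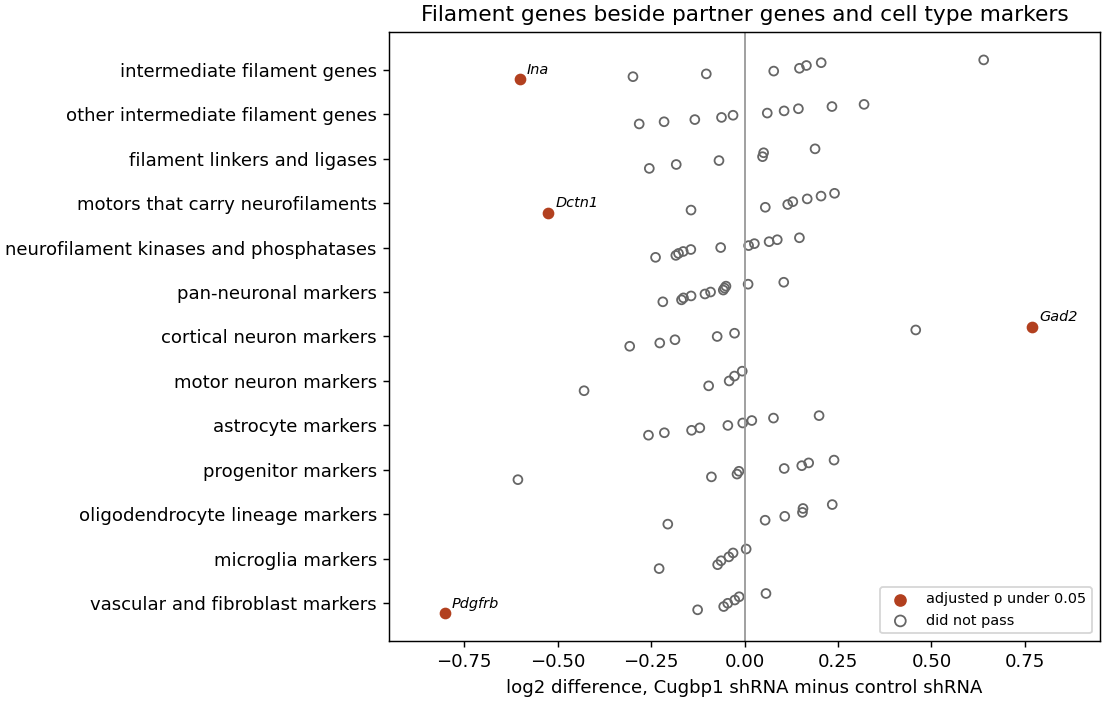
Log2 difference, Cugbp1 shRNA minus control shRNA (x axis), of the 8 filament genes (top) and of each measured gene of 12 partner and marker lists (y axis); filled, named points passed at an adjusted p under 0.05 over all genes (limma). Ina, Dctn1, Gad2 and Pdgfrb are the 4 filled points.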

How the data were processed

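The authors deposited log2 signals, 1 for each exon probe set on each array. Per the labels they are RMA values from the Expression Console software, and build mm9 is named in the submitters' processing notes. RMA normalizes arrays to a shared distribution. The software version is not given in the sources used here. Probe positions and probe sequences were not used here. Array medians lay between 5.74 and 5.78.

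Probe sets were assigned by the platform's annotation, with older symbols updated through RefSeq (GRCm38.p6). Probe sets with a 6-array mean no lower than the median of all probe sets (5.73) were kept (597778), and genes with at least 3 kept were summarised by Tukey median polish. Cugbp1 shRNA minus control was tested two-sided by lmFit and eBayes (limma 3.58.1, R 4.3.3) over all genes, and over all kept probe sets, with Benjamini-Hochberg adjustment at 0.05. Exon usage used diffSplice. Methods were tested on simulated data. Plots used matplotlib 3.10.9.

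The array of each group with no number in its title was taken as replicate 1. Deviations from group means correlated between same-numbered arrays at 0.76, 0.50 and 0.72 across genes. In an alternative fit the numbers were therefore treated as pairing the arrays, with the replicate as a block. Such deviations cancel within a group, so a shift shared by the replicate 1 arrays alone could also give these correlations. Whether the arrays of replicates 2 and 3 are paired was thus not tested. Other alternatives were quantile normalization, median centring, no filter, a filter at the 75th percentile, means in place of median polish, eBayes with trend and robust variances, a threshold of 0.10, and leaving out each array. Genes named are the 8 members and Celf1, called members and up to 3 of smallest p of the lists, for members the probe sets of extreme difference or smallest exon usage p, and the 5 genes most like Ina. The members and lists were chosen with earlier results of these data known. The 3 arrays per group limit the precision.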

Additional observations from a re-analysis of the deposited data

How the results depend on the processing

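The direction and side of the threshold held for Ina under all 8 planned settings that keep 6 arrays, at -0.62 to -0.59. Not all of these could have changed the result. The 0.10 threshold could only keep the call. The block and the trend and robust variances leave the estimate alone, and changing the filter kept all 6 Ina probe sets, so the difference stayed at -0.60. Its size could move only with quantile normalization (-0.59), median centring (-0.60) and means in place of median polish (-0.62). Leaving out single arrays gave -0.64 to -0.55 for Ina and -1.43 to -1.32 for Celf1, each past the threshold in 1 of 6 cases (without control replicate 1), and 0 to 1 members called; the fit then has fewer arrays, and calls over all genes fell to between 0 and 97 higher and between 0 and 174 lower. Gfap ranged from -0.14 to 0.51 and reversed without Cugbp1 shRNA replicate 1. With the replicate block 2 members passed, Ina and Nefh, 1 member probe set passed in exon usage, and 1539 genes were higher and 2288 lower, against 181 and 470 without it; the block changed no other member's call, and the list genes it changed are given above. Replicates 2 and 3 alone, chosen after seeing the data, also gave 2 members, with the block as well. The whole count was 366 higher and 723 lower with trend and robust variances, 354 higher at the 75th percentile filter, and 452 higher and 896 lower at 0.10. The change of Ina against its partners kept its direction throughout: without single arrays it was -0.63 to -0.40 for Nefl, -0.50 to -0.21 for Nefm, -1.52 to -0.96 for Nefh and -0.83 to -0.56 for Prph. The calls of Dctn1, Gad2 and Pdgfrb were not refitted without single arrays. The cause of these dependences was not tested. With 3 arrays a group and the spread of Nefm between them, its difference cannot be settled here.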
